A study of Mus musculus with 8 samples.

Results

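Signalling by Nodal and by BMP was followed through 10 genes in 8 clones of mouse iPS cells (induced pluripotent stem cells). The 10 genes are Nodal, Lefty1, Lefty2, Tdgf1, Gdf3, Smad7 and Skil of the Nodal branch and Bmp4, Bmpr1a and Smad6 of the BMP branch. They were chosen by symbol: 19 probe sets of 45037 that are not array controls are annotated to exactly 1 of them, and the 10 genes stand among 18193 genes with such a probe set. Of the 19 probe sets, 18 lay above the limit set for dim probe sets (a mean signal of about 93.7), and every one of the 10 genes had at least 1 probe set above it.

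The clones came from embryonic fibroblasts of Col-OKSM reprogrammable mice, which carry Oct4, Sox2, Klf4 and cMyc under doxycycline control. Ascorbic acid (vitamin C) was in the medium while 4 of the clones were derived and was left out for the other 4, and each clone was hybridised to 1 Affymetrix mouse 430_2 3'-IVT array. Serum, LIF, doxycycline and a layer of irradiated MEF feeders were common to both groups, and preplating was used to take the feeders out before RNA was isolated. The labels call the 4 clones of a group biological replicates without saying whether they came from separate embryos or dishes, so the tests speak only of the spread among these clones. The comparison asks whether the supplement left a difference in the genes of these pathways in the resulting clones.

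Nodal is a secreted ligand of the TGF-beta superfamily that binds activin receptors together with the co-receptor encoded by Tdgf1 (Cripto) and activates Smad2 and Smad3. It maintains its own expression and induces its antagonists Lefty1 and Lefty2, and in pluripotent cells it also keeps Smad7 expressed, an inhibitory Smad. BMP4 signals through receptors such as Bmpr1a to Smad1 and Smad5. In mouse embryonic stem cells BMP acts with LIF to hold back differentiation, in part through the Id genes, and Smad6 damps the BMP signal from within the cell.

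Both pathways act on DNA through Smad complexes, so the promoters of the members were searched for short Smad motifs. RefSeq promoters of build GRCm38.p6, 300 bases from 250 before to 50 after the gene's start, were at hand for 5 of the 10 members (Nodal, Tdgf1, Bmp4, Bmpr1a and Smad6). The motifs, read on both strands, were CAGAC (the short Smad element), GTCTAGAC (the palindrome of 2 Smad half-sites), GGCGCC (a GC-rich element of BMP Smads) and TGTGGATT, TGTGTATT, TGTTGATT and TGTTTATT (forms of the site of Foxh1, the Smad partner of the Nodal branch, described for its Xenopus homologue). CAGAC was in 49.6% of all 32851 promoters of this length, GTCTAGAC in 0.213%, GGCGCC in 11.9% and any of the 4 Foxh1 forms in 4.4%. No match below overlapped another. Tdgf1 held 1 CAGAC, Smad6 held 1 GTCTAGAC, Bmpr1a held 1 GGCGCC, and Nodal and Bmp4 had no match in this window. A match is a description of the sequence and no evidence of binding.

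The Tdgf1 and Smad6 promoters are shown as examples of CAGAC and GTCTAGAC, with the motif in capitals and 5' to 3' along the gene. The Bmpr1a promoter, which holds a GGCGCC, is not shown. The Tdgf1 window is chr9:110946109-110946408 and the Smad6 window is chr9:64022010-64022309, both on the minus strand of GRCm38.p6.
Tdgf1: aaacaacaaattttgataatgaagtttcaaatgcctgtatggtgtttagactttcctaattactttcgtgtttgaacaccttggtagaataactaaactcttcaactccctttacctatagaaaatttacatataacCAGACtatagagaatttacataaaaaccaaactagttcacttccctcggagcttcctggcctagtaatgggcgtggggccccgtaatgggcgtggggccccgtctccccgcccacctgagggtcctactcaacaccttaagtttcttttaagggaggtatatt
Smad6: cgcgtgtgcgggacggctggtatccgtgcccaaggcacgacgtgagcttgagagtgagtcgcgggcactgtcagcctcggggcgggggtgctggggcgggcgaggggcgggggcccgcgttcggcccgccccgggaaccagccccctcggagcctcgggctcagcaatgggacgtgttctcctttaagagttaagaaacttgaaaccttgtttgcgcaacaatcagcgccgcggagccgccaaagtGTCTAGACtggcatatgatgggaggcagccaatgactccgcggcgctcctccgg

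Signals are the deposited linear values. Differences are with minus without ascorbic acid on the log2(signal + 16) scale, which understates changes of dim genes. Array median signals lay between 134 and 156. The pluripotency markers were bright in every clone: Pou5f1 (Oct4) read 9173 to 11379 with and 10958 to 11571 without ascorbic acid. Summed over 10 such markers, signals came to 80304 to 96531 in clones with the supplement and 89338 to 101149 in clones without. All 10 were lower with ascorbic acid by a median of -0.099 log2, with 0 past the threshold and 0 at an unadjusted p under 0.05. Doxycycline was in the medium and whether the Pou5f1, Sox2 and Klf4 probe sets read transgene RNA was not tested.

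None of the 10 genes passed the test between groups (limma, Benjamini-Hochberg adjusted over 13125 genes, threshold 0.05), where 0.0229% of all tested genes did. In sign 5 members were above 0 and 5 below, with a median difference of 0.023 log2 against -0.0042 over all tested genes. One member, Lefty2, had an unadjusted p under 0.05, as did 5.83% of all tested genes. The median size of the difference, without regard to sign, was 0.073 for the members and 0.081 for all tested genes. For 8 of the 10 genes the 95% interval of the difference lay within 0.31 log2 of 0, between 0.809- and 1.23-fold on this scale. Lefty2 and Bmp4 reached farther.

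**Figure D1:**
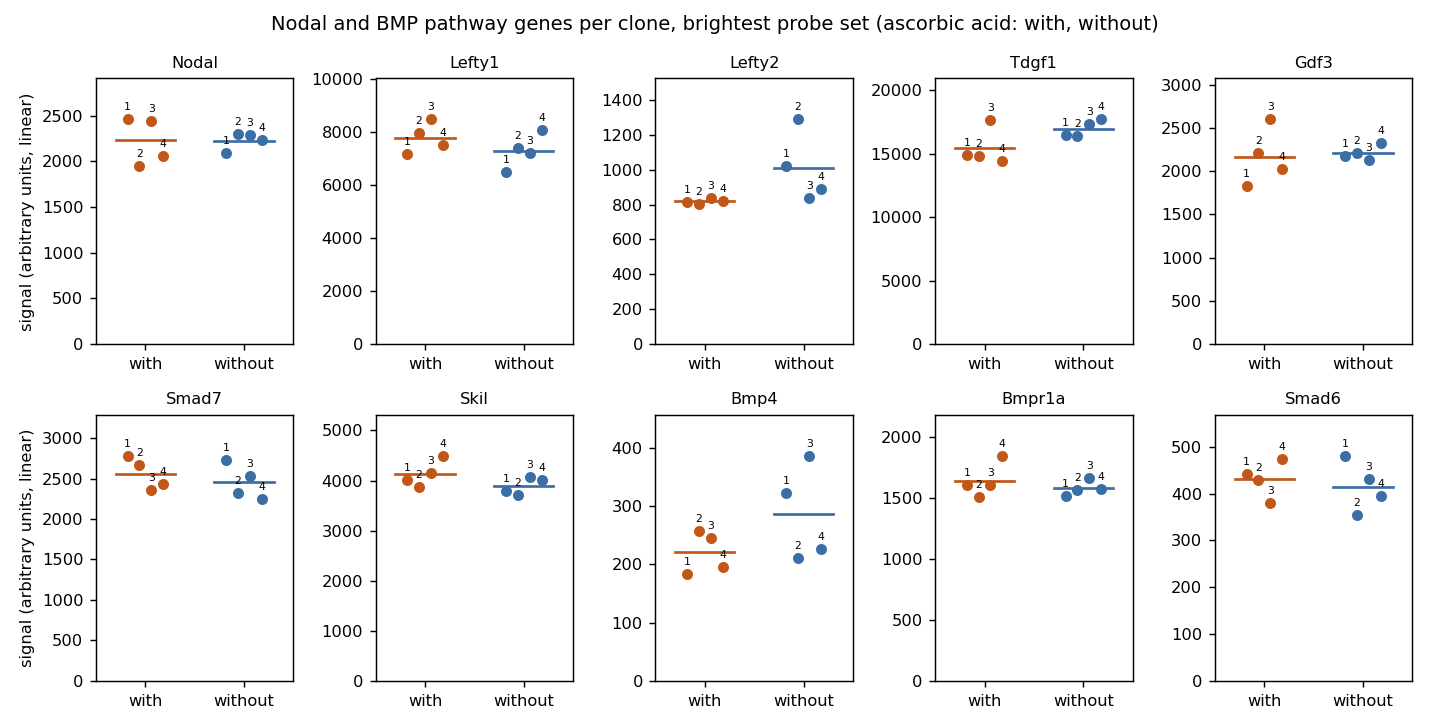
Signal of the brightest probe set of each of the 10 genes (vertical axis, linear, arbitrary units, starting at 0), with 1 point per clone marked by its clone number, and a line at the group mean of 4 clones. Clones with ascorbic acid are orange and stand left of the clones without it, in blue. Lefty2 is the 1 gene whose groups do not overlap, and its 2 highest clones, 1290 and 1023, are without ascorbic acid.

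Nodal, the ligand, had the smallest difference of the 10 genes. Its brighter probe set read 2463, 1946, 2443 and 2063 in clones 1 to 4 with ascorbic acid and 2088, 2302, 2288 and 2232 in clones 1 to 4 without. The groups overlapped fully, and the clones with ascorbic acid spanned more (SD 263 with and 98 without). The difference was -0.0058 ± 0.08 log2 (SE; limma, adjusted p = 0.995), with a 95% interval of -0.18 to 0.17, or 0.882- to 1.12-fold. The other Nodal probe set read 1278, 1399, 1438 and 1150 with and 1321, 1512, 1309 and 1521 without, a difference of -0.11 ± 0.085 (SE; adjusted p = 0.902 in limma over all probe sets). The probe sets placed single clones differently: clone 1 with ascorbic acid was the highest of its group on the first and the next to lowest on the other.

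Gdf3, a related ligand that in mouse embryonic stem cells also acts as a BMP inhibitor, did not differ past the test either. Its brighter probe set read 1830, 2211, 2602 and 2029 with ascorbic acid and 2171, 2206, 2127 and 2324 without. The lowest and the highest clone were both in the group with ascorbic acid (SD 329 with and 84.2 without), and the difference was -0.037 ± 0.091 log2 (SE; limma, adjusted p = 0.97). The other probe set read 476 ± 83.1 with and 451 ± 71.7 without (SD, n = 4 each), a difference of 0.073 ± 0.13 (SE) of the opposite sign. Clone 3 was the highest of its group with ascorbic acid on both probe sets.

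Tdgf1, the co-receptor that Nodal and Gdf3 need to signal, read 14924, 14806, 17653 and 14391 with ascorbic acid and 16490, 16364, 17310 and 17724 without. Except for clone 3, the clones with ascorbic acid lay below all 4 without, while clone 3 with ascorbic acid was above 3 of them. The difference was -0.14 ± 0.077 log2 (SE; limma, adjusted p = 0.844), with a 95% interval of -0.31 to 0.027. It was -0.21 without clone 3 with ascorbic acid and -0.017 after quantile normalization. The pluripotency markers were lower in this group too, and their part in the Tdgf1 difference was not tested.

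The Lefty genes encode secreted inhibitors of Nodal that are induced by it. Lefty1 read 7162, 7950, 8482 and 7490 with ascorbic acid and 6501, 7372, 7189 and 8064 without. The groups overlapped, and the difference was 0.095 ± 0.077 log2 (SE; limma, adjusted p = 0.888), with a 95% interval of -0.072 to 0.26. Leaving out clone 1 without ascorbic acid brought it to 0.042, clone 3 with ascorbic acid to 0.052, and clone 4 without to 0.15.

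Lefty2 read 813, 804, 836 and 819 with ascorbic acid and 1023, 1290, 837 and 887 without. The 4 clones with ascorbic acid were nearly identical (SD 13.5), and the clones without spread over a wide range (SD 203). The groups did not overlap, but the gap was 836 against 837. A gap in either direction was seen in 3.63% of all tested genes and one toward lower values with ascorbic acid in 1.57%, and 1 of 10 members is too small a count to set apart from that background. The difference was -0.28 ± 0.11 log2, or 0.825-fold (SE; 95% interval 0.696- to 0.978-fold; limma, unadjusted p = 0.0301, adjusted p = 0.817), and it ranked 484 of the 13125 tested genes by p. Leaving out clone 2 without ascorbic acid brought it to -0.15. Neither Lefty probe set carries a suffix that marks reading of several transcripts. Whether Lefty1 and Lefty2 differ from each other in their response was not tested.

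The inhibitory Smad7 and the co-repressor Skil (SnoN), which holds back Smad2 and Smad3 and is itself a target of the signal, were close between groups on their brightest probe sets. Smad7 read 2782, 2667, 2363 and 2428 with ascorbic acid and 2724, 2320, 2527 and 2243 without, a difference of 0.062 ± 0.076 log2 (SE; limma, adjusted p = 0.934). Skil read 4001, 3879, 4153 and 4496 with and 3786, 3705, 4064 and 4018 without, a difference of 0.084 ± 0.062 (SE; limma, adjusted p = 0.873). In both genes the groups overlapped. Leaving out single clones moved Smad7 between 0.02 (without clone 4 lacking ascorbic acid) and 0.11 (without clone 1 of that group), and it was 0.021 without clone 1 with ascorbic acid. Skil was at 0.043 without clone 4 with ascorbic acid. The Skil probe set varied little between clones: its SD within groups of 0.079 log2 was at the 10th percentile of all tested probe sets (median 0.17).

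The other probe set of Smad7 varied far more between clones than the brightest. This probe set, of the _x_at class that can read other transcripts, gave 2655, 629, 593 and 2507 with ascorbic acid and 922, 1587, 817 and 404 without. Clones 1 and 4 with ascorbic acid were the highest of all 8, clones 2 and 3 of the same group were below 3 of the 4 clones without, and the highest clone was 6.58-fold above the lowest. On the brightest Smad7 probe set that ratio was 1.24. The SD within groups of the _x_at probe set, 1.01 log2, was at the 99.9th percentile of all tested probe sets. Its difference of 0.58 ± 0.51 log2 (SE; limma over all probe sets, adjusted p = 0.912) was 0.23 without clone 1 with ascorbic acid and 0.94 without clone 3 of that group. With the mean of the probe sets Smad7 stood at 0.32. The files do not say which transcripts this probe set reads. The second Skil probe set read 354, 283, 314 and 358 with and 225, 316, 264 and 319 without, a difference of 0.21 ± 0.14 (SE; adjusted p = 0.882 in limma over all probe sets).

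**Figure D2:**
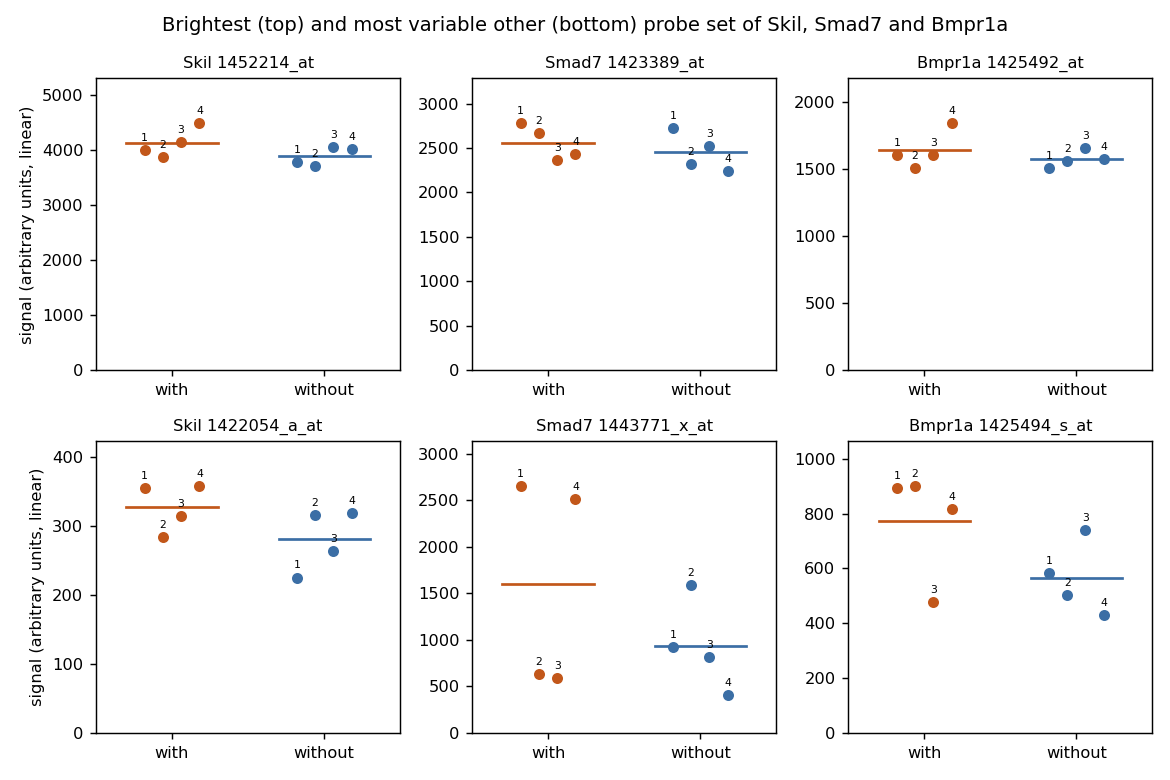
Signal per clone (vertical axes, linear, arbitrary units, starting at 0) of the brightest probe set (top row) and the most variable other probe set (bottom row) of Skil, Smad7 and Bmpr1a; clones with ascorbic acid are orange, on the left, and clones without are blue, points carry the clone number and lines are group means of 4. The lower Smad7 probe set, of the _x_at class, runs between 404 and 2655 over the clones, while the upper one stays between 2243 and 2782.

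In the BMP branch, the ligand Bmp4 had the largest difference of the 10 genes on the brightest probe set and the widest error. It read 184, 257, 245 and 196 with ascorbic acid and 322, 210, 386 and 226 without. Clones 1 and 3 without ascorbic acid were the highest of all 8, and the other 2 clones without lay among those with it. The difference was -0.32 ± 0.19 log2, or 0.799-fold (SE; 95% interval 0.599- to 1.07-fold; limma, adjusted p = 0.844). Leaving out clone 3 without ascorbic acid brought it to -0.17, and leaving out clone 2 of that group to -0.45. The SD within groups, 0.32 log2, was at the 86.3rd percentile of all tested probe sets. Bmp4 and its 1 probe set give no second reading of this gene.

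The BMP receptor Bmpr1a (ALK3) has 6 probe sets in the annotation. The brightest read 1604, 1507, 1606 and 1846 with ascorbic acid and 1513, 1564, 1660 and 1575 without, a difference of 0.052 ± 0.069 log2 (SE; limma, adjusted p = 0.94) with a 95% interval of -0.098 to 0.2. Another 3 probe sets above the dim limit had differences of 0.0045 to 0.087. The _s_at probe set read 894, 902, 479 and 816 with and 582, 503, 740 and 430 without, a difference of 0.43 ± 0.2 (SE; limma over all probe sets, unadjusted p = 0.0546, adjusted p = 0.882). Clones 1, 2 and 4 with ascorbic acid were above all 4 without on that probe set, and clone 3 was below 3 of them. The sixth was dim, at 7.65 ± 2.38 with and 7.29 ± 2.72 without (SD, n = 4 each).

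Smad6, which blocks BMP receptor signals and is induced by them, read 441, 429, 380 and 474 with ascorbic acid and 481, 354, 431 and 394 without. The groups overlapped, and the difference was 0.058 ± 0.11 log2 (SE; limma, adjusted p = 0.96), with a 95% interval of -0.19 to 0.3.

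Over all 18 member probe sets above the dim limit, 12 had a difference above 0 and 6 one below. Over all tested probe sets the counts were 12605 and 14417. Several of the 12 belong to the same gene, Bmpr1a, and by gene the split of the members was 5 and 5. After adjustment over 27022 probe sets 0 of the 18 passed, where 0.0481% of all tested probe sets did. One, that of Lefty2, had an unadjusted p under 0.05, against 5.55% of all tested probe sets. Its groups were the 1 pair of 18 that did not overlap, against 3.4% of all tested probe sets. The largest differences, 0.58 for Smad7 and 0.43 for Bmpr1a, were on an _x_at and an _s_at probe set.

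**Figure D3:**
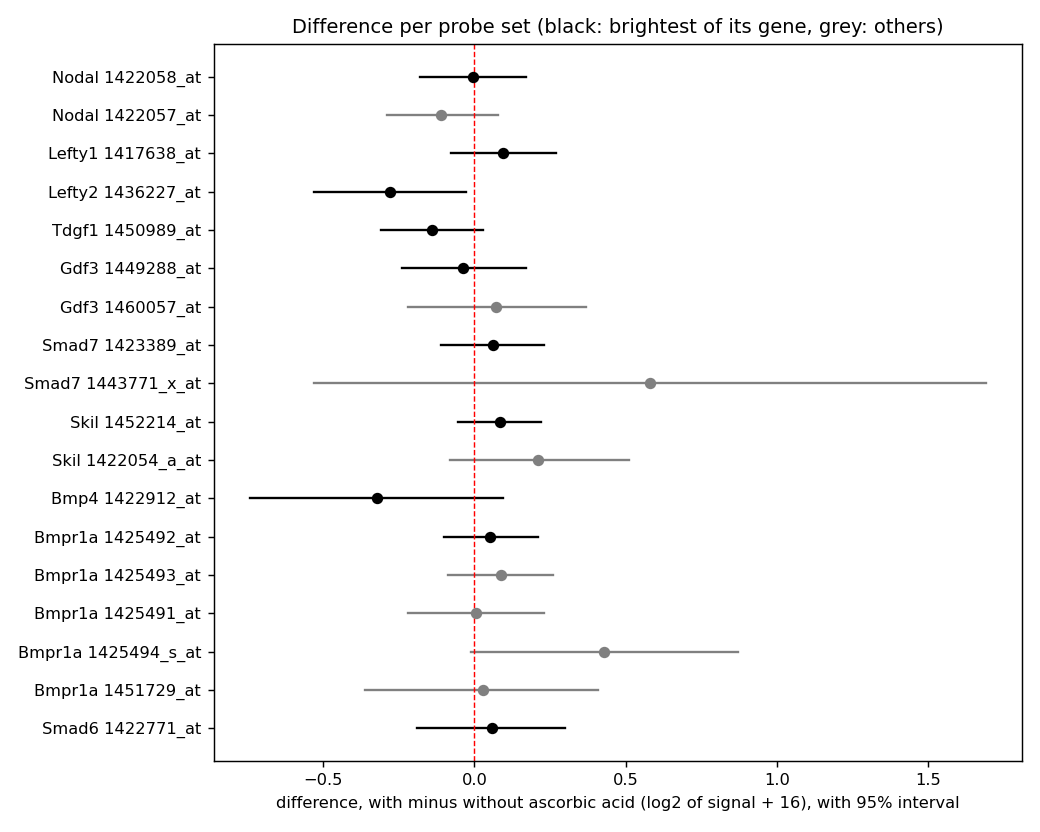
Difference with minus without ascorbic acid (horizontal axis, log2 of signal + 16) for the 18 probe sets above the dim limit, as a point with its 95% interval from limma over all probe sets; black marks the brightest probe set of a gene and grey the others, and the dashed line is at 0. Lefty2 (-0.28) is the 1 probe set whose interval does not cross 0, and the Smad7 _x_at probe set has the widest interval, -0.53 to 1.69.

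Other genes of these pathways were read in the same fit, in 7 lists. Of 80 listed genes 73 had a single-gene probe set and 61 were tested. Of the 61, 29 were higher and 32 lower. None passed over all genes, and 5 were at an unadjusted p under 0.05, or 8.2% against 5.83% of all tested genes. Among the 5 was Fgf8, whose mean was below the dim limit with ascorbic acid (87.2) and above it without (165). Fgf8 thus entered the test only through the group where it was higher, so the share of 8.2% carries that limit. The median difference of the 61 genes was -0.00048 log2 against -0.0042 over all tested genes.

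Among ligands, processing enzymes and antagonists of the Nodal and activin branch, 3 were higher and 10 lower of 13 tested, with a median of -0.085 and 2 at an unadjusted p under 0.05. Pcsk6, a convertase that cleaves the Nodal precursor, read 834, 841, 743 and 735 with ascorbic acid and 1027, 942, 841 and 894 without (log2 difference -0.23 ± 0.082, SE; limma, adjusted p = 0.767). Inhba, the subunit of activin A, read 449, 420, 427 and 410 with and 505, 577, 540 and 445 without (log2 difference -0.26 ± 0.097, SE; limma, adjusted p = 0.767). Ltbp3, a protein that binds latent TGF-beta, read 496 ± 88.8 with and 591 ± 59.2 without (SD, n = 4 each), a log2 difference of -0.26 on an _s_at probe set that became -0.097 when the _s_at and _x_at probe sets were left out. The Pcsk6 groups met at 841, and the highest Inhba clone with ascorbic acid (449) was above the lowest without (445). Cer1 and Dand5, secreted antagonists of Nodal, were below the dim limit.

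Of the receptors 2 were higher and 4 lower of 6 tested, with 0 at an unadjusted p under 0.05 and a median of -0.0031. The TGF-beta receptors Tgfbr2 and Tgfbr3 were at -0.2 ± 0.11 and -0.23 ± 0.13 log2 (SE), and Tgfbr1 at 0.05 ± 0.06. Acvr1c (ALK7), which can bind Nodal, was below the dim limit.

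Fibroblast and feeder markers lay mostly on the same side as these lower genes. Of 10 listed, 8 were above the dim limit. Of these 6 were lower and 2 higher, with a median of -0.21 log2, and 0 passed. The median size of their difference, without regard to sign, was 0.31 log2. An unadjusted p under 0.05 was found for 4 of the 8, or 50% against 5.83% of all tested genes. Whether these 4 included the 2 higher markers was not broken down, so the 50% is no measure of a fall. The signals of the 10 markers summed to 13323 to 17528 in clones with the supplement and 15453 to 18348 in clones without. Lum and Dcn were below the dim limit, while Acta2, Col1a2 and Col1a1 were the brightest, and all of these overlapped between groups. Acta2, on an _s_at probe set, had a mean of 6101 with and 6414 without ascorbic acid. Col1a2 had 3744 and 4583, and Col1a1 had 2628 and 3216. The part of fibroblast and feeder RNA in the values of Inhba, Pcsk6, Ltbp3, Tgfbr2, Tgfbr3, Lefty2 and Bmp4 was not tested. In such bulk samples fewer cells of a type and less RNA per cell cannot be told apart.

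In the intracellular part of the Nodal branch, of 13 Smads, partners and co-repressors 9 were higher and 4 lower, with a median of 0.048 and 0 at an unadjusted p under 0.05. Smad2, the Smad that Nodal activates, read 990 ± 82.8 with and 929 ± 25 without (SD, n = 4 each), and its log2 difference was 0.088 ± 0.072 (SE). Zfyve9 (SARA), which presents Smad2 to the receptor, was at 0.13 ± 0.1, and Drap1, a co-repressor that limits Nodal signals in the mouse embryo, at -0.095 ± 0.056.

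Only 3 of 8 listed Nodal and activin targets were tested, 2 higher and 1 lower. Fgf8, a growth factor of the primitive streak, read 45, 69, 86.3 and 149 with ascorbic acid and 87.5, 190, 131 and 252 without. Its mean with ascorbic acid, 87.2, was below the dim limit of about 93.7, and its mean without, 165, was above it. Fgf8 therefore entered the test only through the group where it was higher, and its p carries no separate weight. The groups overlapped, and the log2 difference of -0.81 ± 0.33 did not pass (SE; limma, unadjusted p = 0.0312, adjusted p = 0.823). Mixl1 and Eomes, primitive streak regulators that respond to Nodal, were at 0.09 ± 0.21 and 0.027 ± 0.11. Over the 7 primitive streak and mesoderm markers with a probe set, signals summed to 1004 to 1309 with and 1096 to 1264 without, and Gsc and Wnt3 were below the dim limit. The 8 primitive endoderm markers summed to 1486 to 1993 with and 1666 to 1840 without. The 8 trophectoderm markers summed to 5078 to 6790 with and 5185 to 7364 without. Krt18 (means 2176 with and 2358 without) and Krt8 (1773 and 1876) were the brightest of the trophectoderm list. Only 7 and 5 markers of these 2 lists were above the dim limit and tested, with 0 past the threshold in either. Sox7 of the first list and Cdx2, Elf5 and Gata3 of the second were below it.

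**Figure D4:**
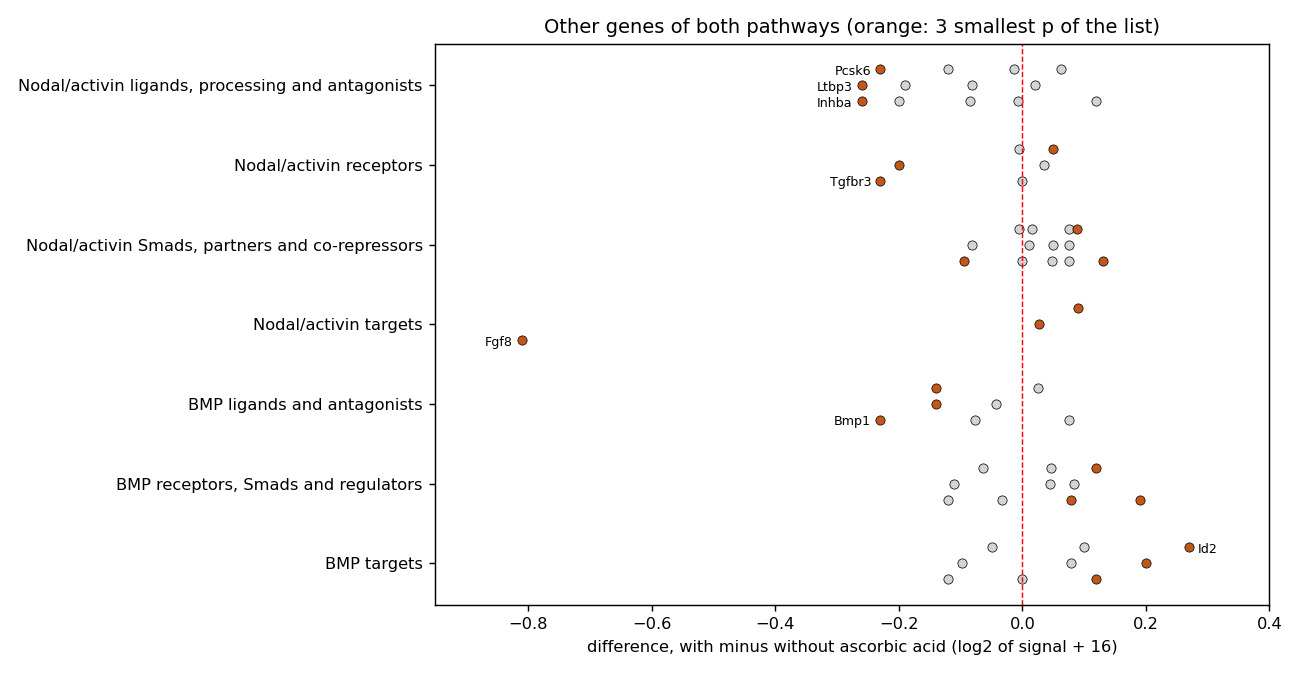
Difference with minus without ascorbic acid (horizontal axis, log2 of signal + 16) for the 61 tested genes of 7 pathway lists, 1 point per gene; orange marks the 3 genes of each list with the smallest p, points are spread vertically within a list for legibility, names mark points far from 0, and the dashed line is at 0. None of the 61 passed over all genes. Fgf8 (-0.81), whose mean with ascorbic acid is below the dim limit, lies farthest from 0.

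Among the BMP ligands and antagonists, 2 were higher and 5 lower of 7 tested, with a median of -0.076 and 0 at an unadjusted p under 0.05. Twsg1 and Chrd, secreted proteins that bind BMP, were at -0.14 ± 0.066 and -0.14 ± 0.16 log2 (SE), and the protease Bmp1, which cleaves Chordin, was at -0.23 ± 0.18. Chrd was at -0.036 without clone 4 and at -0.27 without clone 2 of the group lacking ascorbic acid, and Bmp1 at -0.076 without clone 3 with ascorbic acid. The Twsg1 probe set is of the _s_at class, and without that class Twsg1 was at -0.083. Bmp2, Bmp8a, Bmp8b, Bmp15 and Nog were below the dim limit. Of BMP receptors, Smads and regulators 6 were higher and 4 lower of 10 tested, with a median of 0.046 and 1, Tob1, at an unadjusted p under 0.05. Tob1, which binds BMP Smads and dampens their activity, read 2244, 2251, 2103 and 2189 with ascorbic acid and 1939, 2146, 1878 and 1773 without (log2 difference 0.19 ± 0.065, SE; limma, unadjusted p = 0.0146, adjusted p = 0.762). Clones 1, 2 and 4 with ascorbic acid were above all 4 without. Bmpr2, the type II BMP receptor, was at 0.12 ± 0.097, and the phosphatase Ppm1a at 0.079 ± 0.058.

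The BMP targets were mixed, with 5 higher and 4 lower of 9 tested, a median of 0.078 and 1, Id2, at an unadjusted p under 0.05. Id2, an inhibitor of basic helix-loop-helix factors, read 584, 573, 639 and 560 with ascorbic acid and 499, 487, 473 and 481 without on its brightest probe set. The groups did not overlap there, 1 of the 61 pathway genes (1.64%) against 3.63% of all tested genes, and the log2 difference of 0.27 ± 0.079 did not pass (SE; limma, unadjusted p = 0.00499, adjusted p = 0.749). The other 2 Id2 probe sets went the other way, at -0.18 ± 0.16 and -0.14 ± 0.21, and with the mean of the probe sets Id2 was at -0.016. Id1 and Id3, the Id genes most tied to BMP in mouse embryonic stem cells, were at -0.049 ± 0.15 and 0.078 ± 0.09 on their 1 probe set each, and the 3 Id4 probe sets at -0.06 to 0.12. Hand1, a trophectoderm and mesoderm factor, was at 0.2 ± 0.17, and at 0.024 when clone 2 without ascorbic acid (236, others of its group 385 to 400) was left out.

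The genes whose values over the 8 clones ran closest to the ligands were found by the root mean square difference of log2 values, each centred on its own mean, over all tested genes outside the 10 members. For Nodal these were Ly6k (0.0394 log2), BC002059 (0.048) and Mtfmt (0.0509), where Nodal itself deviated from its mean by 0.112. For Bmp4 they were Gm13032 (0.102), Gm3336 (0.156) and Gm2381 (0.162), where Bmp4 deviated by 0.321. Over 8 clones and 13125 genes, some genes run close to any pattern, and the likeness is a description only.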

How the data were processed

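Expression was measured with 1 array per clone in 4 clones with and 4 without ascorbic acid. The deposited table holds linear signal intensities, 1 per probe set and array, which per the submitters' processing notes came from GCOS, the Affymetrix operating software. Neither its version nor its settings are stated in those notes. Averaged over the 8 arrays, the mean signal after trimming 2% at each end was 500, and the values were taken as already scaled. Array medians spanned 0.199 log2, within the limit of 0.2, so the scaling was kept.

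Of 45101 probe sets, 64 controls were left out; 34945 have 1 gene symbol, 932 several and 9160 none, and only those with 1 were named. Signals were transformed as log2(signal + 16), and the 40% with the lowest mean were left out. The brightest probe set stood for a gene (13125 genes tested); a further fit took all 27022 probe sets. Groups were compared with limma 3.58.1 in R 4.3.3 (lmFit, eBayes with intensity trend), two-sided, with Benjamini-Hochberg adjustment over everything tested and a threshold of 0.05; intervals are 95%. The fit was tested on simulated data as a check of the code. The changes put in were larger than the member differences on the brightest probe sets, so it gives no measure of power for them. The number of arrays limits the precision.

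The members and gene lists were chosen with earlier results of these data known. Named are all members, the 3 genes with the smallest p of each pathway list, the brightest markers, and the 3 genes most like Nodal and Bmp4; genes of a list given as below the dim limit, Id1, Id3 and the Id2 and Id4 probe sets were added after values were seen. The alternatives were other scalings, pseudocounts of 1 and 64, no or a 60% dim filter, no trend, a replicate block, other choices of probe set and leaving out each clone. Drawings were made with matplotlib 3.10.9. Promoters are from RefSeq.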

Additional observations from a re-analysis of the deposited data

Results flagged for a closer look

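A clone that stood far from the other 3 of its group was found in 5 of 80 groups tested (6.25%), and chance alone flags about 5%. For Tdgf1 the signal of clone 3 with ascorbic acid was 17653 and the others of that group lay at 14391 to 14924. On the dimmer Gdf3 probe set clone 3 without ascorbic acid was at 558 and the others at 402 to 425. On the dim Bmpr1a probe set clone 4 with ascorbic acid was at 11.2 and the others at 6.16 to 6.93. Clone 2 without ascorbic acid read low for Ltbp3 (502, others 610 to 626) and for Hand1 (236, others 385 to 400).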

How the results depend on the processing

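No member gene, member probe set or pathway gene passed under any alternative run, and the smallest adjusted p was 0.657 for a member gene, 0.565 for a further member probe set and 0.581 for a named pathway gene. The count called was 0 in each. The median difference of the 10 members was 0.023 and ran from -0.0019 to 0.049 when each clone was left out; that of the pathway genes ran from -0.013 to 0.017. With the clone number as a replicate block, 0 members passed and the Lefty2 difference stayed at -0.28 (adjusted p = 0.915). The labels state no pairing of same-numbered clones. Deviations of such clones from their group means correlated at -0.165 to 0.0117 over the tested genes. Whether they shared an embryo or a dish was not tested.

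Differences turned sign in 22 of 683 comparisons with an alternative, among them that of Id2, whose difference of 0.27 rests on its brightest probe set. Under median centring Nodal was at 0.028, and under quantile normalization the third-brightest Bmpr1a probe set was at -0.0016. With the mean of the probe sets Gdf3 was at 0.018, Tgfbr1 at -0.0046 and Id2 at -0.016. Leaving out single clones gave ranges of -0.056 to 0.056 for Nodal, -0.13 to 0.04 for Gdf3, -0.0051 to 0.092 for Bmpr1a, -0.013 to 0.13 for Smad6, -0.044 to 0.1 for Eomes and -0.017 to 0.24 for Mixl1. For further probe sets they were -0.037 to 0.18 (the dimmer one of Gdf3), -0.089 to 0.064 (the third-brightest of Bmpr1a) and -0.1 to 0.16 (the fifth of Bmpr1a). Other differences that moved by over 1.5 times without single clones kept their sign, at 0.048 to 0.18 for Bmpr2, 0.034 to 0.12 for Smad2, 0.061 to 0.19 for Id4, 0.048 to 0.11 for Ppm1a, 0.027 to 0.075 for Tgfbr1 and -0.31 to -0.15 for Tgfbr3. Among further member probe sets, the dimmer one of Nodal ran from -0.15 to -0.043 and the second of Skil from 0.12 to 0.28. The second-brightest of Bmpr1a ran from 0.047 to 0.13. The cause was not tested.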
